A study of Rattus norvegicus with 4 samples.

Results

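The genes described here are 54 drivers of mitosis and the cell cycle, from the G1 cyclins and the E2F factors to the kinases, checkpoint proteins, motors and anaphase regulators of mitosis. They were taken as the non-control probes of the array whose gene name was a listed symbol or an older rat alias of it. Of the 54 genes, 53 had a probe, among 18827 named genes on the array. Cenpe, a kinetochore motor, had no probe under this rule. The 53 genes were read by 77 probes, 34 of them by 1 probe and 19 by 2 or more. A probe named Aim1, an alias of Aurkb, lay on another chromosome than Aurkb, was detected on 0 arrays and was not counted.

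RNA was measured in NR8383 cells, an established line of alveolar macrophages from the lung lavage of a normal rat. All 4 samples form 1 group, untreated cells in submerged culture, and the labels name no genetic change or agent beyond the medium. The cells were used after 20 passages, grew partly attached and partly floating, and were kept in 15% serum with 2 mM glutamine. The design text calls the samples biological replicates and gives 4 h of incubation, whereas the treatment protocol gives 48 h from seeding, and which interval applies was not settled. With 1 line and 1 condition, the question these data allow is which of the cell cycle genes the line expresses, and how steady their levels are between replicates.

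Each sample was hybridised to a one-colour array. A level is a probe's processed fluorescence signal on a log2 scale, relative to the 75th percentile of its array, so 0 is the signal that 1 in 4 spots exceeds. Detection of a probe on an array required that more than 0.5 of its usable spots be well above background. Where a gene had several probes, the brightest detected one gives its level. Levels are listed in the order of replicates 1 to 4 and summarised as mean ± SD (n = 4). Probes differ in how well they bind, so the level of a gene is not set against that of another. In bulk RNA, fewer cycling cells and less RNA per cell cannot be told apart.

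Cells divide by raising and destroying cyclins, which switch on cyclin-dependent kinases in turn. G1 cyclins with Cdk4, Cdk6 and Cdk2 release E2F factors that start DNA synthesis genes, and later Foxm1 and Mybl2 turn on the mitotic genes. Cyclin B with Cdk1 drives entry into mitosis, the spindle checkpoint holds chromosomes until all are attached, and the anaphase-promoting complex then marks cyclins and securin for destruction. Alveolar macrophages in the lung largely rest but can renew themselves locally, whereas this line grows continuously in culture.

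NR8383 cells carried RNA for nearly the whole programme. On all 4 arrays 52 of the 53 genes with a probe were detected (98.1%), beside 54.9% of all named genes. The exception was Cdk6, a partner of the D cyclins. The members were chosen with earlier results of these data known, so the detection shares describe and do not test. All 5 genes of cyclins A, B and F with Cdk1 were detected, as were all 9 mitotic entry genes. So were all 4 chromosomal passenger genes, all 5 checkpoint genes and all 5 anaphase regulators. Of the 77 probes, 73 passed on every array, 3 on none and 1 on replicate 4 only. By the means of their brightest detected probes, 32 of the 52 lay above the 75th percentile (61.5%), beside 37.3% of all detected named genes. Probes differ in binding, so these shares describe signal and not amounts of RNA. They also depend on the choice of probe. The other detected probe lay below that percentile for Foxm1, Ccna2, Wee1, Aurka, Nek2 and Incenp. It lay above for Ccnd1, Mybl2, Ccnb2, Ube2c and Prc1, and the other probes of Mki67 fell on both sides. Processed signals of the 52 ran from 74.7 to 17435 fluorescence units.

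**Figure D1:**
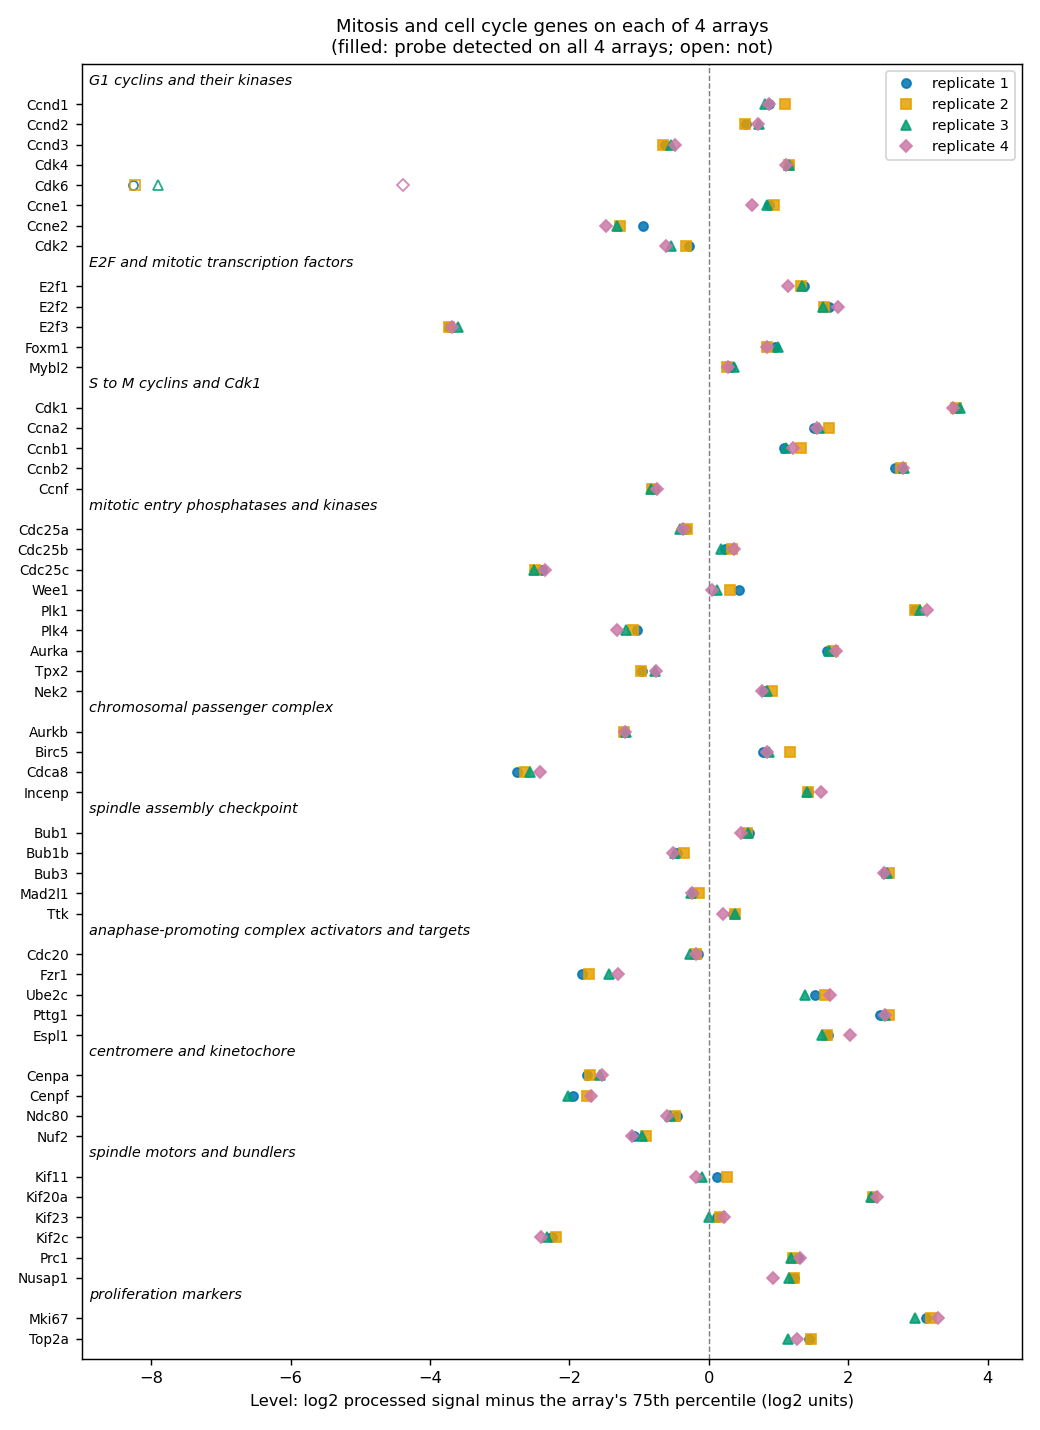
Level of each of the 53 genes on the 4 arrays, grouped by role. The horizontal axis is the level in log2 units from the 75th percentile of each array, and the dashed line marks 0. Filled symbols are genes detected on all 4 arrays. The 4 symbols of most genes nearly coincide, and Cdk6 (open symbols) lies far to the left on replicates 1 to 3.

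The arrays themselves differed in brightness, with 75th percentiles of 1317, 1489, 1179 and 958 units, and no spot was saturated. Spike-in control probes stood 1.86, 1.87, 2.46 and 2.85 above that percentile. Detected probes numbered 22415, 22227, 20780 and 20170. By both measures replicates 1 and 2 were set apart from 3 and 4, a split that some genes below also showed. A link between them was not tested. Of 8 macrophage markers, 8 were detected, among them Cd68 at 4.74 ± 0.055 and Lyz2 at 6.67 ± 0.062. The lowest levels of the 8 were those of Csf1r at -0.017, Spi1 at -0.43 and Itgam at -0.90. Of 6 epithelial markers, 0 were detected on all arrays. A few markers of other cells were detected: Col1a2 and Dcn of 5 for fibroblasts, Cd3d and Lck of 5 for T cells, Cd79a of 4 for B cells, Mpo and Camp of 5 for neutrophils, and Pecam1 and Cdh5 of 4 for endothelium. Pecam1 lay at -0.70 and Camp at -1.06, near the lowest macrophage markers, and the rest from -2.24 (Dcn) down to -5.46 (Cd79a). The part of other cells in the values below was not tested.

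The promoters of the genes shared letters that the choice of members did not use. The motifs themselves were chosen after their matches were seen, so the shares describe the windows and do not test an excess. RefSeq promoter windows on GRCr8, from 250 bases before to 50 after the start site, matched 41 of the 54 genes. The core of the cell cycle homology region, TTTGAA, occurred on either strand in 24 of 41 windows (58.5%). It occurred in 18.1% of 27457 windows of all genes and in 12.3% of 8624 windows of genes detected here. The CCAAT box, the binding letters of the factor NF-Y, was in 29 of 41 (70.7%), beside 37.7% and 38.8%. Both were in 19 of 41 (46.3%), beside 7.25% and 5.26%. At least 2 CCAAT boxes were in 19 of 41 (46.3%), beside 11.5% and 14.6%.

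The TTTGAA core was in 23 of 35 windows of S, G2 and M genes and in 1 of 6 of the G1 cyclins, their kinases and the transcription factors, where E2f3 held it. This difference was not tested, and 7 of the 13 genes of the latter roles had no window, against 6 of the other 41. An E2F core (TTCCCGC or TTGGCGC) was in 7 of 41 (17.1%), those of Cdk2, E2f3, Cdk1, Cdc25a, Plk4, Kif23 and Mki67. All windows held it in 6.67% and those of detected genes in 12.6%. A TATA box (TATAAA) was in 1 window, that of Nusap1 (2.44%), beside 14.3% and 7.26%. The GC box GGGCGG was in 33 (80.5%), beside 34.9% and 61.3%, and the E-box CACGTG in 3 (7.32%), beside 6.65% and 9.49%. With TTCGAA allowed beside TTTGAA the count was 26 (63.4%), beside 19.5% and 14.3%. The median GC content was 60.3%, the same as in windows of detected genes. The letters TTGGCGC can overlap a CCAAT box read on the other strand, as ATTGG. A match describes letters only and is not a shown binding site.

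The 150 bases before the start site are printed for 6 genes that carry these letters, since their spacing is easiest to see in the sequence. Capitals mark TTTGAA or CCAAT, or their other-strand forms TTCAAA and ATTGG. The windows are Ccnb1 (chr2:33655226-33655375, minus strand), Ccnb2 (chr8:79981659-79981808, minus strand), Cdk1 (chr20:19265143-19265292, plus strand), Cdc20 (chr5:137255800-137255949, minus strand), Pttg1 (chr10:28406327-28406476, minus strand) and Mki67 (chr1:199952594-199952743, minus strand), all on GRCr8 and read 5′ to 3′ on the gene's strand.
Ccnb1: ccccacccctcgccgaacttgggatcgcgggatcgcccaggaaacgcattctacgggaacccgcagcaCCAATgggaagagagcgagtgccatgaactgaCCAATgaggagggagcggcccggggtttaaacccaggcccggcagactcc
Ccnb2: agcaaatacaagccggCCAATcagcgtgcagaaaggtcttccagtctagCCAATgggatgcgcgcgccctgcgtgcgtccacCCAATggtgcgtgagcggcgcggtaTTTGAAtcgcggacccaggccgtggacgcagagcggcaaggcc
Cdk1: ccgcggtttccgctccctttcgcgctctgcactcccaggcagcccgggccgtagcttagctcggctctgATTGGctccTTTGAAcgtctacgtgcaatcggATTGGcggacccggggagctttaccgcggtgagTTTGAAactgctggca
Cdc20: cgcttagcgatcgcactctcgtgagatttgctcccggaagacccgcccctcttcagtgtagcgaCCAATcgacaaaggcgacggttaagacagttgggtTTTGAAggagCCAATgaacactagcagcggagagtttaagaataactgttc
Pttg1: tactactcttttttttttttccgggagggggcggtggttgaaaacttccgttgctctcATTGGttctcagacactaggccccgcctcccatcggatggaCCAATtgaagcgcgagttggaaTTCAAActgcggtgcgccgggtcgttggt
Mki67: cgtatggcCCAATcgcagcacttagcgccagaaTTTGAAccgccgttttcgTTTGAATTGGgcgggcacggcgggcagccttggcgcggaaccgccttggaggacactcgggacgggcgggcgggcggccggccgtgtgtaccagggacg

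In Ccnb1 the CCAAT boxes began 82 and 50 bases before the start site, and no TTTGAA lay in its window. In Cdk1 the boxes, on the other strand, began at 81 and 49 bases, with TTTGAA at 72 and 16. Ccnb2 had CCAAT at 134, 101 and 68 bases and TTTGAA at 43, with a further TTTGAA at 214, outside the printed stretch. A same-strand pair of CCAAT boxes 31 to 33 bases apart was in 4 of 41 windows (9.76%), those of Ccnb1, Ccnb2, Cdk1 and Nek2. All windows held such a pair in 0.761% and those of detected genes in 1.58%. The spacing was chosen after the matches in these genes were seen, so the shares do not test it. In Mki67 a TTTGAA at 99 bases runs into an ATTGG at 94, and the pair shares 1 base. Cdk4, Ccne1, Mybl2, Aurka, Bub1, Fzr1 and Kif2c had neither TTTGAA nor CCAAT in their windows.

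**Figure D2:**
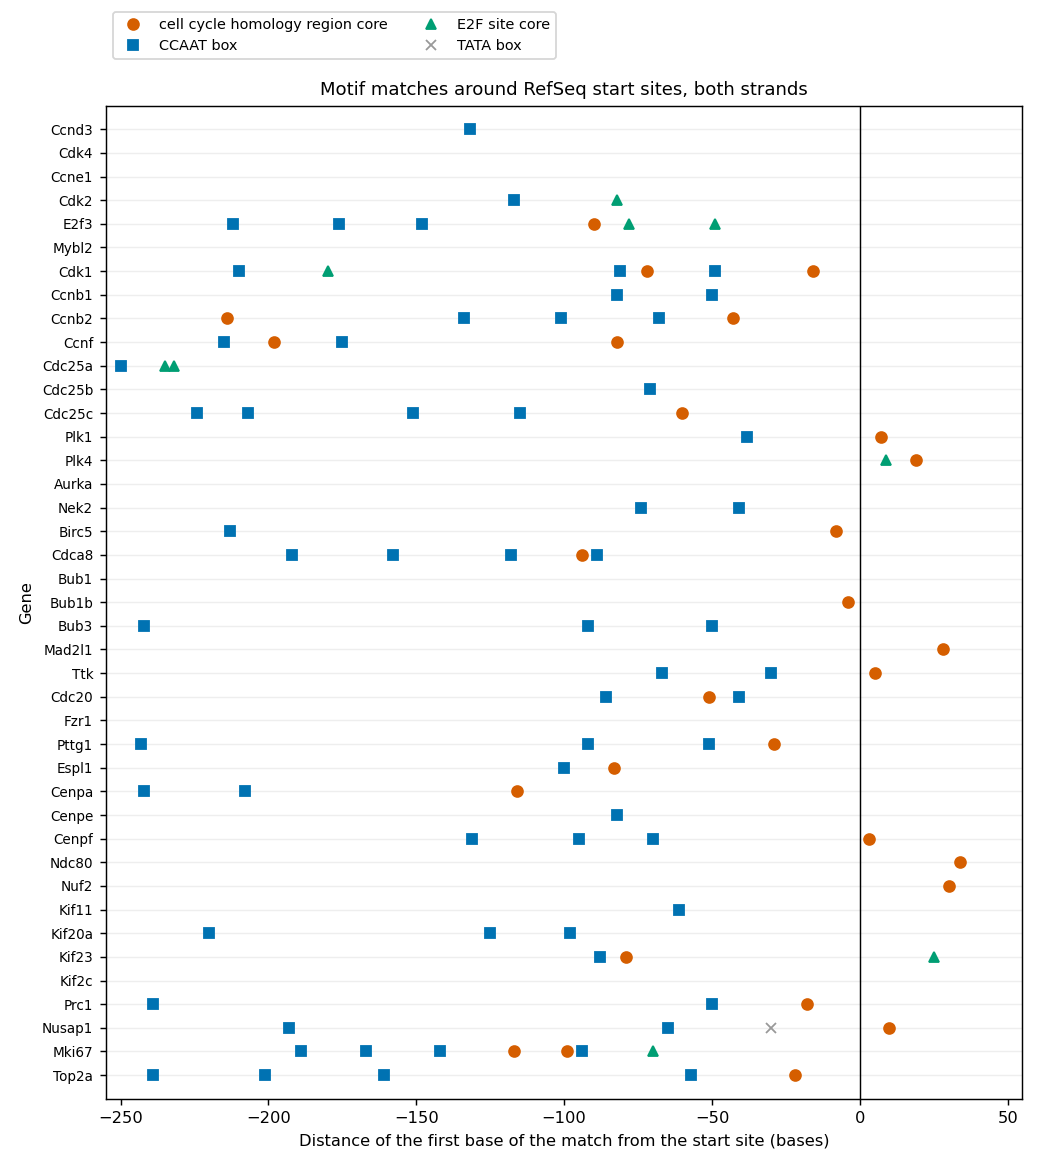
Matches to 4 motifs in the 41 promoter windows, on both strands. The horizontal axis is the distance in bases from the RefSeq start site to the first base of the match, and each line is a gene. CCAAT boxes (squares) are on 29 lines and TTTGAA cores (circles) on 24, and 1 TATA box (cross) is seen, in Nusap1.

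Among the G1 cyclins and their kinases, 7 of 8 were detected and Cdk6 was not. Ccnd1, cyclin D1, which links growth signals to the cycle, lay at 0.86, 1.09, 0.80 and 0.86 (probe at chr1:205357553-205357612 on rn4, the build of the files). Replicate 2 was the highest, and a second Ccnd1 probe gave 0.30, 0.56, 0.23 and 0.26, also highest on replicate 2. Ccnd2, cyclin D2, lay at 0.53, 0.52, 0.72 and 0.71 (probe spanning chr4:163535032-163541856), with replicates 1 and 2 below 3 and 4. Ccnd3 had a mean of -0.58 ± 0.081.

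Cdk4, the kinase of the D cyclins, lay at 1.15, 1.16, 1.15 and 1.11 (chr7:67017293-67017352). Its whole range was a ratio of 1.03 between arrays. Cdk6 was near the floor of the arrays: its brightest probe (chr4:27362858-27362917) gave -8.26, -8.23, -7.90 and -4.38, or 4.3, 5.0, 4.9 and 45.9 fluorescence units. That probe passed as detected on replicate 4 alone, and the other 2 Cdk6 probes, chr4:27361379-27361438 and chr4:27359476-27359535, passed on no array. For the D cyclins' kinases, then, the level of Cdk4 was measured on every array. Cdk6 passed on 1 array only, by a probe of 1 spot, while its other 2 probes read 5.3 and 5.0 units on replicate 4.

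Cyclin E and Cdk2, which act at the entry to S phase, were lowest on replicate 4. Ccne1 lay at 0.81 ± 0.13. Ccne2 lay at -0.94, -1.27, -1.32 and -1.47 (chr5:25043721-25043780), with replicate 1 highest and a ratio of 1.45 between the highest and lowest arrays, the widest of the 52. Cdk2 lay at -0.28, -0.32, -0.55 and -0.62 (chr7:2000436-2000495), and replicates 1 and 2 stood above 3 and 4. The mean of the 7 detected genes, centred on its own mean, was 0.051, 0.033, -0.016 and -0.068, highest on replicate 1 and lowest on replicate 4. This order of the extremes also held with quantile normalization, with the median of detected probes as the scale and with normexp background correction, the 4 settings meant where a group's order is given. Spike-in scaling shifts every gene of an array by one amount and is described with the whole set.

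The transcription factors were all detected, 5 of 5. E2f1, an activator of DNA synthesis genes, lay at 1.37, 1.33, 1.34 and 1.13 (chr3:145032731-145032790), and replicate 4 was the lowest. E2f2, a second activator, lay at 1.72, 1.65, 1.64 and 1.85, and there replicate 4 was the highest. E2f3 was dim, at 99.8, 112, 97.5 and 74.7 units or -3.68 ± 0.061 on the log2 scale. Foxm1, which drives G2 and M genes, lay at 0.90 ± 0.084, and Mybl2, its partner on those promoters, at 0.30 ± 0.043. The group's centred mean was 0.022, -0.039, 0.041 and -0.024, within 0.08 between arrays.

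Cdk1 and the cyclins of S phase to mitosis were detected, 5 of 5. Cdk1 gave 15545, 17435, 14320 and 10868 units, or levels of 3.56, 3.55, 3.60 and 3.50 (chr20:20043755-20043814). The replicates lay within a ratio of 1.07. Ccna2, cyclin A2, which acts in S phase and G2, lay at 1.51, 1.72, 1.58 and 1.55 (chr2:123063042-123063101), with replicate 2 the highest. A second Ccna2 probe (chr2:123065588-123065829) gave -2.15, -2.04, -1.98 and -1.91, highest on replicate 4. Ccnb1 lay at 1.18 ± 0.11 and Ccnb2 at 2.75 ± 0.057, both B cyclins of mitotic entry. Ccnf, an F-box protein of the cyclin family, gave -0.78, -0.81, -0.82 and -0.74 (chr10:13474659-13474718), 1 of the 5 smallest spreads. The centred mean of the 5 genes was -0.049, 0.051, -0.0075 and 0.0055, highest on replicate 2 under each of the 4 settings.

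The genes that control Cdk1, the spindle poles and the centrosomes were detected, 9 of 9. The Cdc25 phosphatases activate cyclin-dependent kinases. Cdc25a lay at -0.33, -0.31, -0.41 and -0.37 (chr8:114255714-114255773) and Cdc25b at 0.23, 0.33, 0.17 and 0.36 (chr3:118903421-118903480), and both were lowest on replicate 3. Cdc25c lay at -2.44 ± 0.077. Wee1, the kinase that holds Cdk1 off, gave 0.43, 0.31, 0.12 and 0.048 (chr1:167787742-167787801). On this probe replicate 1 was the highest and replicate 4 the lowest, a ratio of 1.30. A second Wee1 probe (chr1:167785049-167785315) gave -2.72, -2.84, -2.78 and -2.73, a ratio of 1.08. It was also highest on replicate 1 but lowest on replicate 2.

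Plk1, the polo-like kinase of mitotic entry and exit, lay at 3.02 ± 0.085, and Plk4, which starts centriole copying, at -1.16 ± 0.13. Aurka, the spindle pole kinase, lay at 1.76 ± 0.061, and its activator Tpx2 at -0.87 ± 0.12. Nek2, which splits the centrosomes, lay at 0.82 ± 0.061. The centred mean of the 9 genes was 0.011, 0.013, -0.031 and 0.0063. Replicate 3 was the lowest under each of the 4 settings.

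The chromosomal passenger complex, which corrects attachments and guides cell division, was detected in all 4 subunits. Its kinase Aurkb had the smallest spread of the 52 genes, -1.21, -1.22, -1.18 and -1.21 (probe spanning chr10:55801393-55801534), a ratio of 1.02. Birc5, survivin, lay at 0.77, 1.16, 0.86 and 0.83, and replicate 2 was above the rest. Incenp, the scaffold, lay at 1.42, 1.42, 1.40 and 1.61 (chr1:212326920-212326979), with replicate 4 above the rest. A second Incenp probe (chr1:212324140-212324199) gave -1.50, -1.64, -1.88 and -1.92, lowest on replicate 4, so the probes of Incenp did not share an order. Cdca8, borealin, lay at -2.59 ± 0.14.

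The spindle assembly checkpoint, which delays anaphase until chromosomes are attached, had all 5 genes detected. The kinase Bub1 lay at 0.58, 0.55, 0.56 and 0.46 (chr3:115324612-115324671) and the checkpoint protein Bub1b at -0.46, -0.36, -0.49 and -0.51 (chr3:105115671-105115730). Bub3, their partner at kinetochores, lay at 2.53, 2.58, 2.55 and 2.51 (chr1:191139310-191139369), within a ratio of 1.05. In these 3 genes replicate 4 was the lowest. Mad2l1, which binds Cdc20, lay at -0.22 ± 0.052, and the kinase Ttk at 0.33 ± 0.081. For 4 of the 5 genes replicate 2 was the highest, as for 25.5% of all detected named genes, and for 4 replicate 4 was the lowest, as for 28.2%. The centred mean was 0.0079, 0.055, 0.0008 and -0.063, and replicate 4 was the lowest under each of the 4 settings.

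The activators and targets of the anaphase-promoting complex were detected, 5 of 5. Their median SD was 0.16, beside 0.055 for the checkpoint genes, and this difference was not tested. Cdc20, the mitotic activator, lay at -0.16, -0.18, -0.28 and -0.18 (chr5:138913267-138914237) and was lowest on replicate 3. Fzr1, the activator for late mitosis and G1, lay at -1.83, -1.72, -1.43 and -1.31 (probe spanning chr7:9825959-9826682). It had the largest SD of the 52, 0.24, with replicates 1 and 2 below 3 and 4. Pttg1, securin, lay at 2.52 ± 0.051. Espl1, separase, which cuts cohesin, gave 1.71, 1.69, 1.62 and 2.03 (chr7:141074166-141074225), and replicate 4 was above the other three. Ube2c, the enzyme that supplies ubiquitin to the complex, gave 1.52, 1.66, 1.38 and 1.74 (probe spanning chr3:155802226-155802557), lowest on replicate 3. The centred mean of the 5 was -0.078, -0.011, -0.055 and 0.14. Replicate 4 was the highest under each of the 4 settings.

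The probes of Ube2c and Espl1 show how far a level belongs to the probe. The Ube2c probes overlap over 39 bases and are printed with capitals at the bases where they differ. Counted from the first probe's 5′ end, the substitutions are A30G and A57C, first probe to second.
Ube2c, first probe: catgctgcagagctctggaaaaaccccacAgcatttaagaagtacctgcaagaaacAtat
Ube2c, second probe: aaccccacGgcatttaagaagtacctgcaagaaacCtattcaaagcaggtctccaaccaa
Their levels were 1.52, 1.66, 1.38 and 1.74 for the first and 0.33, 0.49, 0.19 and 0.45 for the second, a mean difference of 1.21. After each was centred, they differed by at most 0.077 on any array. Replicate 3 was the lowest in both.

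For Espl1, 1 probe lies at the start of the coding sequence and the other at its end, with the ATG and the TGA stop codon in capitals.
Espl1, start: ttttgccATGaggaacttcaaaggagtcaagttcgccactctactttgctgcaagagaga
Espl1, end: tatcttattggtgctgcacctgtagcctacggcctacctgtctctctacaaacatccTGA
The probe at the start (chr7:141048190-141048249) was detected on 0 arrays, at -6.05, -6.90, -6.07 and -6.67. The probe at the end (chr7:141074166-141074225) was detected on all 4. Detection of Espl1 therefore rests on 1 of 2 probes, and a rule that asks for every probe of a gene counts 51 genes rather than 52.

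At the centromere and kinetochore, 4 of the 5 listed genes had a probe and all 4 were detected. Cenpa, the histone that marks centromeres, lay at -1.75, -1.71, -1.56 and -1.53 (chr6:25688936-25688995), with replicates 1 and 2 below 3 and 4. A second Cenpa probe (chr6:25685603-25685662) gave -2.39, -2.29, -2.13 and -2.45, lowest on replicate 4, so the probes did not share that split. Cenpf, a large kinetochore and nuclear matrix protein, lay at -1.95, -1.75, -2.02 and -1.69 (chr13:105921172-105921231), with replicates 1 and 3 below 2 and 4. Ndc80 and Nuf2, which join in the complex that grips microtubules, lay at -0.52 ± 0.063 and -1.01 ± 0.095. The centred mean was -0.052, 0.044, -0.018 and 0.026.

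The motors and bundlers of the spindle were detected, 6 of 6. Kif11, the motor that pushes spindle poles apart, lay at 0.12, 0.25, -0.096 and -0.18 (chr1:241722721-241722780), and replicates 1 and 2 stood above 3 and 4. Kif20a, a motor of the midzone, lay at 2.34, 2.36, 2.33 and 2.41 (chr18:27108170-27108229), within a ratio of 1.06. Kif23, its neighbour in the midzone, lay at 0.12 ± 0.088, and at -0.029 with normexp background correction. Kif2c, which removes microtubule ends, lay at -2.29 ± 0.095, the bundler Prc1 at 1.24 ± 0.059 and the spindle protein Nusap1 at 1.13 ± 0.14. The centred mean was 0.04, 0.071, -0.057 and -0.054, highest on replicate 2 under each of the 4 settings.

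The classical markers of dividing cells were read clearly. Mki67, the Ki-67 antigen, gave 11465, 13540, 9186 and 9401 units and levels of 3.12, 3.18, 2.96 and 3.29 (chr1:195310145-195310204). Top2a, the topoisomerase that untangles chromosomes, lay at 1.44, 1.46, 1.14 and 1.26 (chr10:87771459-87771518). Both were lowest on replicate 3, and all 4 Mki67 probes were lowest there. The centred mean of the pair was 0.049, 0.091, -0.18 and 0.044, lowest on replicate 3 under each of the 4 settings. The mean of the 8 macrophage markers was also lowest on replicate 3, at 0.028, 0.055, -0.12 and 0.04 after centring, but 3 of the 8 were lowest there. That mean rests on the integrin Itgam, which lay at -1.42, -0.56, -1.59 and -0.032: without it the other 7 gave 0.11, 0.014, -0.042 and -0.078, lowest on replicate 4.

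**Figure D3:**
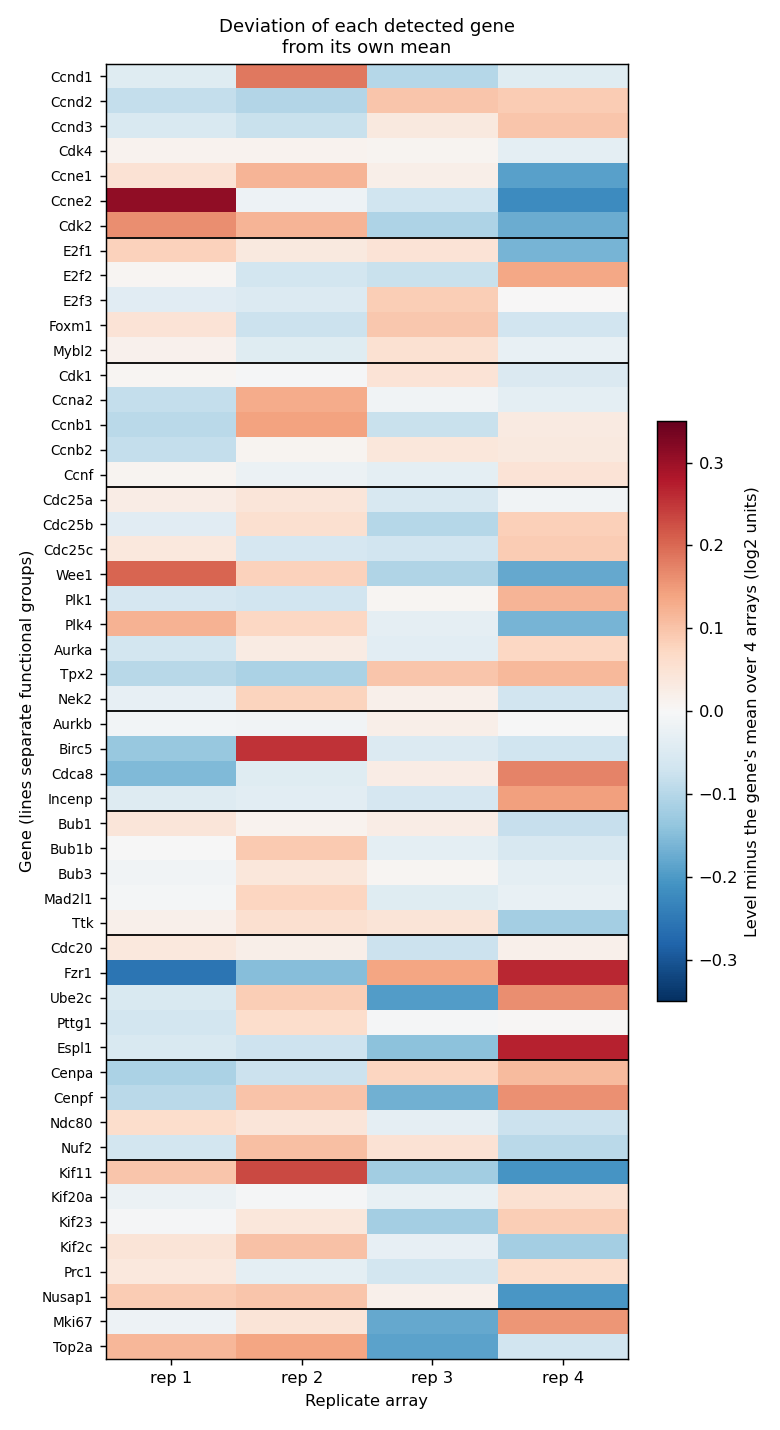
Difference of each of the 52 detected genes from its own mean on each array, in log2 units (colour scale). Lines separate the roles. Most cells are pale, and the deepest belong to Ccne2 and Fzr1 on replicate 1, Birc5 on replicate 2, and Fzr1 and Espl1 on replicate 4.

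Taken as a set, the genes moved little between replicates. The mean level of the 52 was 0.36, 0.39, 0.33 and 0.36, with an SD of 0.023, and the mean of all detected named genes had an SD of 0.019. Replicate 2 decides much of that spread, which was 0.014 without it. The highest array was replicate 1 for 8 genes, 2 for 18, 3 for 7 and 4 for 19, or 15.4%, 34.6%, 13.5% and 36.5%. Over all detected genes the shares were 19.8%, 25.5%, 22.7% and 32.1%. The lowest array was replicate 1 for 9 genes, 2 for 8, 3 for 17 and 4 for 18, or 17.3%, 15.4%, 32.7% and 34.6%. Over all detected genes those shares were 23.7%, 20.2%, 27.9% and 28.2%. With scaling to the spike-in probes instead, the centred mean of the 52 was 0.39, 0.42, -0.22 and -0.59. That of all detected named genes was nearly the same, 0.39, 0.39, -0.22 and -0.57, so the shift was not particular to these genes.

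None of the 52 genes passed a test for variation beyond that of genes of like signal. The test was limma's residual variance of each probe against a robust prior that follows signal, with Benjamini-Hochberg adjustment over 19400 detected probes. It called 0 of 52 genes, beside 0.145% of detected named genes (15 of 10338), and 0 of their 73 detected probes, beside 0.17% of all detected probes (33). The lowest adjusted p was 0.86, that of Espl1 in limma's test. At an unadjusted p under 0.05 it also gave 0 of 52, beside 5.65% of detected named genes, and 0 of 73 probes, beside 6.5%. The next in order were Fzr1, Kif11 and Ccne2, with adjusted p of 0.86, 0.87 and 0.89 in limma's test. A p above the threshold does not show that the genes were constant.

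The SD of a gene over the arrays ran from 0.015 for Aurkb to 0.24 for Fzr1. The median was 0.09, beside 0.11 for all detected named genes, whose quartiles were 0.073 and 0.17. Of the 52 genes, 35 were below the median of all genes. Set against the prior SD for their signal, 31 of 52 were below it (59.6%), beside 58.1% of all detected genes, a share near the background. In ratio terms, the highest over the lowest array was 1.15 at the median and at most 1.45, with 1.19 at the median of all genes. The 10 largest SDs were those of Fzr1, Ccne2, Kif11, Espl1, Wee1, Birc5, Cdk2, Ube2c, Cenpf and Top2a. The 5 smallest were those of Aurkb, Cdk4, Bub3, Ccnf and Kif20a. A single array stood apart from the others by Dixon's criterion in 2 of the 52 genes, Cdk4 and Incenp, beside 5.12% of detected named genes.

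**Figure D4:**
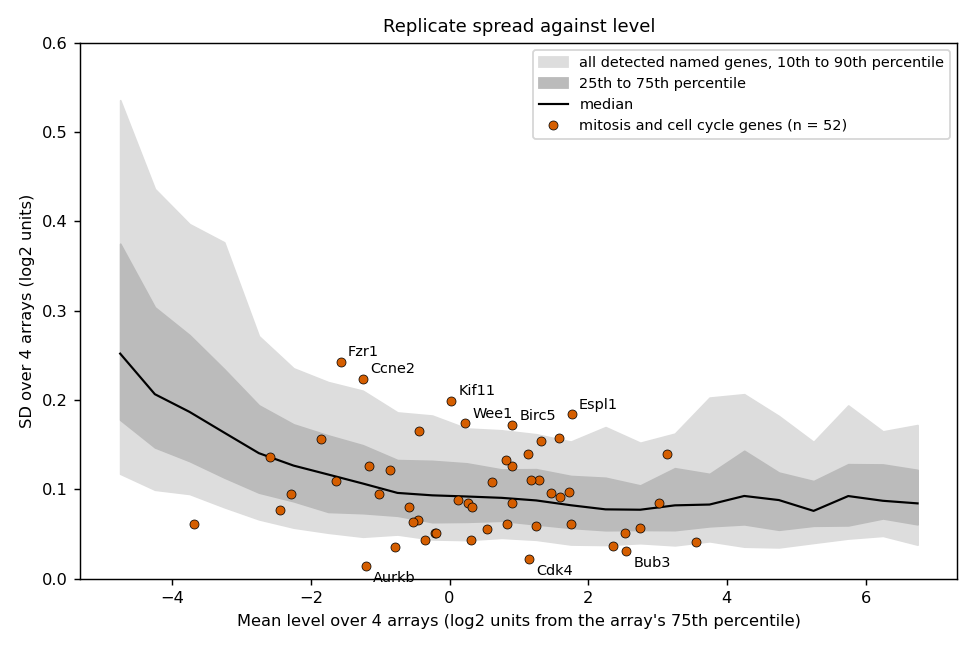
SD over the 4 arrays against mean level for the 52 genes (points), in log2 units. Grey bands span the 25th to 75th and the 10th to 90th percentiles of all detected named genes, and the line is their median. The points lie mostly inside the bands, with Fzr1 and Ccne2 at the top and Aurkb at the bottom.

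For 6 genes the chosen probe was printed on 10 spots, which gives the error of reading an array. The SD between arrays of Mki67, 0.14, was 8.86 times the standard error of its 10-spot mean. The ratio was 7.98 for Ccnd1, 4.83 for Plk1, 3.86 for Pttg1, 2.70 for Cdk1 and 2.14 for Bub3. In each the SD between arrays exceeded the standard error of the spot mean, which holds no labelling or hybridisation noise. For Cdk1 the SD between arrays, 0.041, lay within the range of the SDs of its spots, 0.033 to 0.059. For Bub3 it was 0.031, within 0.024 to 0.054.

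In 17 genes 2 or more probes were detected, and the largest difference between centred probes was 0.15 at the median and 0.41 at most, for Nek2. None was over 0.5, beside 6.92% of 2746 such genes on the array, whose median was 0.20. The detected probes of a gene shared their highest array in 8 of the 17, their lowest in 8 and both in 3. The highest or lowest array named for a gene can therefore depend on the probe. Probe levels differed by 2.99 at the median and by up to 4.71, again for Nek2, whose probes at chr13:107908691-107908750 and chr13:107907177-107907236 gave 0.79, 0.90, 0.84 and 0.76 and -4.06, -3.89, -4.05 and -3.54. The Aurka probes were 4.06 apart.

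**Figure D5:**
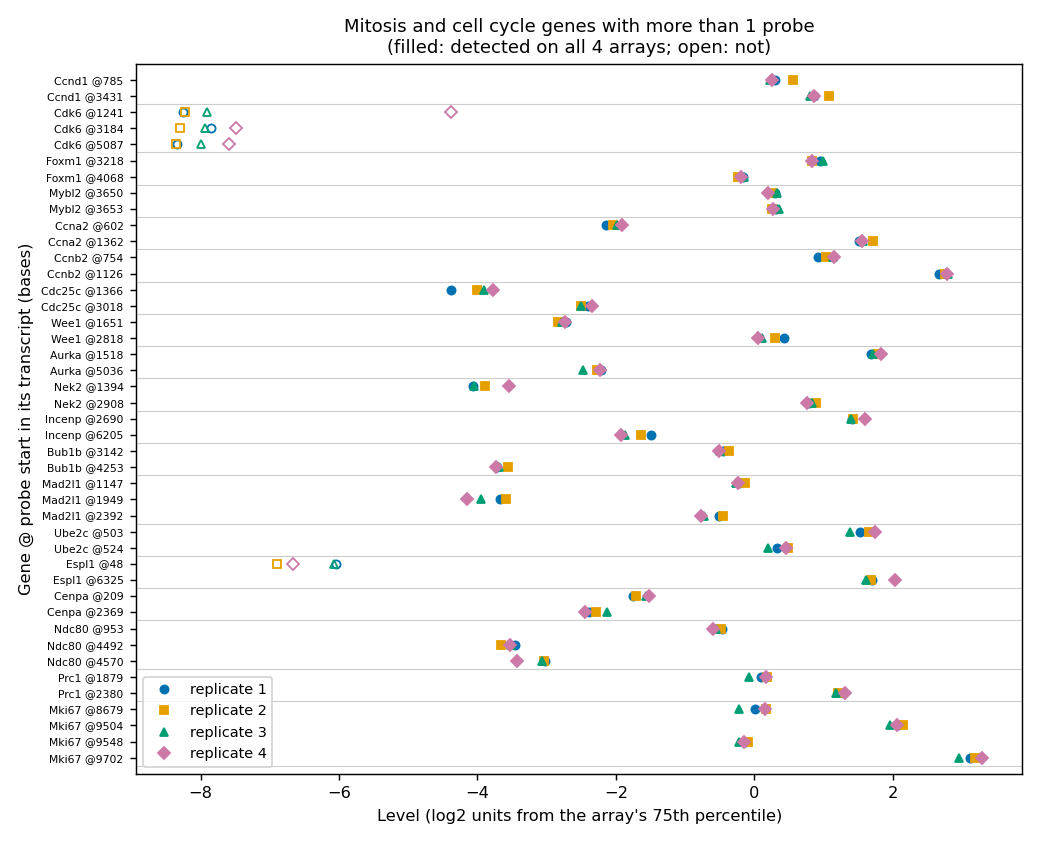
Level of every probe of the 19 genes with more than 1, on each array, in log2 units from the array's 75th percentile. Labels give the gene and the first base of the probe in its transcript, and open symbols are probes not detected on all 4 arrays. Probes of a gene can lie over 4 units apart, as for Nek2 and Aurka, with their 4 arrays close together.

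The rest of the cell cycle machinery was read from 7 further lists, with 87 of 92 genes on the array. Of these, 83 were detected on all arrays, where 54.9% of all named genes were. These lists too were chosen with earlier results of these data known. Replication licensing had 13 of 13, with Mcm2 of the replicative helicase at 4.01, 3.85, 3.94 and 3.83, the core of the anaphase-promoting complex 12 of 12, condensin and cohesin 14 of 14, and further kinetochore genes 16 of 16. The E2F repressors and their partner complex had 10 of 11, and E2f8, a repressor, passed on 3 arrays at -5.15, -5.46, -5.56 and -6.18. Cyclins and kinases outside the 54 had 9 of 11: Ccna1, the germ-line cyclin A, passed on no array, and Ccnb3 on 1. Limma's variance test called 0 of the 83, beside 0.145% of detected named genes, with a lowest adjusted p of 0.65. At an unadjusted p under 0.05 in that test there were 3 (Cdkn1b, Ccng1 and Cdkn3), beside 5.65% of detected named genes.

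RNA for most brakes on the cycle was detected as well. Of the 10 inhibitors and pocket proteins 9 were detected on all arrays, beside 54.9% of all named genes. Cdkn1c, an inhibitor of G1 kinases, was not. Cdkn1a, the p21 inhibitor, lay at 2.26, 2.57, 2.26 and 2.57, with replicates 1 and 3 below 2 and 4. Cdkn2a, the locus of the p16 and p19Arf inhibitors, was dim at -5.38, -5.75, -4.58 and -5.30, and its probe was not assigned to either product. Rb1, the pocket protein that holds E2F factors, lay at -0.95, -0.86, -1.24 and -1.08. Rbl1, another pocket protein, was dim at -4.44, -4.27, -4.85 and -4.91.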

How the data were processed

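Cy3-labelled RNA (100 ng, integrity number above 7.5, per the labels' protocols) was hybridised to one-colour Agilent arrays and, per the submitters' processing notes, quantified in Agilent Feature Extraction 11.0.1.1. The deposited values are spot fluorescence intensity, which per the file headers the software had background-corrected, with no scaling between arrays. Each array held 58717 non-control spots for 45598 probes. Outlier-flagged spots were left out, no pseudocount was added, and spots of a probe were averaged. Depth is not defined for arrays, and their number, 4, limits the precision. All 4 arrays lay on 1 slide, so no batch could be tested. Accessions, then symbols, then older symbols were matched to RefSeq names (GRCr8), which named 23845, 5132 and 341 probes. Loci without an approved symbol were left out of the 18827 named genes. Coordinates are on rn4, per the file headers, with no exon or UTR annotation.

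The members and lists were chosen with earlier results of these data known. Arrays were given for the first 2 genes of each role, the 10 largest and 5 smallest SDs, any gene not detected, and any gene with an array standing apart. Genes beyond that rule, the motifs, the 31 to 33 base spacing, and the printed promoters and probes were chosen after their values or matches were seen. The p-values measure only the spread between these samples.

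The variance test used limma 3.58.1 in R 4.3.3, at an adjusted p of 0.05. Tested on simulated data, it recovered most probes planted with excess spread when noise was Gaussian. When the spread of probes was itself heavy-tailed, it recovered few except at the largest planted excess. The heavy-tailed version was run first and the Gaussian one added after its low recovery was seen. The sizes of the planted excess are not given here, so recovery does not show the power of the test for these genes. Espl1, the gene with the lowest adjusted p, had an SD of 0.18 beside a prior SD of 0.095. Whether the test could find an excess of that size was not shown. Python 3.11.15, numpy 2.4.6, pandas 2.3.3 and matplotlib 3.10.9 were used. Alternatives covered the detection flag and rule, normexp correction (offset 50), quantile, median and spike-in scaling (8 probes), flagged spots, each replicate, the prior, the threshold (0.01) and the probe rule.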

Additional observations from a re-analysis of the deposited data

Results flagged for a closer look

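An array was taken to stand apart when its distance from the closest of the others, as a share of the range of all 4, passed Dixon's limit. Chance alone gives this in about 1 in 20 sets of arrays. Among the 52 detected genes 2 met it, beside 5.12% of detected named genes. For Cdk4 the gap was 0.951 of the range, with replicate 4 low, but the range was only 0.046, and the gap fell to 0.56 with normexp, 0.45 with quantile, 0.73 with median and 0.42 with spike-in scaling. For Incenp it was 0.893, with replicate 4 high. It was past the limit with median (0.92) and quantile scaling (0.85) and below it with normexp (0.73) and spike-in scaling (0.23). Cdk6, not detected on 3 arrays, had a gap of 0.907 by its probe of 1 spot, with replicate 4 high. It was 0.90 with median, 0.99 with quantile and 0.915 with spike-in scaling, and below the limit with normexp, at 0.76.

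Of the mean levels of the lists, that of the 9 mitotic entry genes had a gap of 0.838, with replicate 3 low. It stayed past the limit with flagged spots kept (0.87). It fell below the limit with normexp (0.64), quantile (0.58), median (0.33) and spike-in scaling (0.36). The core of the anaphase-promoting complex had 0.865, with replicate 2 high, at -0.014, 0.031, -0.009 and -0.008 after centring; other scalings were not tried for it. The macrophage markers had 0.844, with replicate 3 low. Without Itgam, an alternative chosen after seeing the data, it was 0.50 and replicate 3 was not the lowest.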

How the results depend on the processing

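The count of 52 detected genes stayed at 52 with the positive-and-significant flag, with 2 arrays required, with flagged spots kept and without each replicate in turn (52 to 52), and was 51 with every probe required. The variance test called 0 genes under each alternative but 1, and 0 to 0 without a replicate. With no filter on dim probes it called 1 gene, Cdk6 (adjusted p 0.0025 in limma's test), among 1121 probes. That call rests on a probe of 1 spot that was near the floor on replicates 1 to 3. With spike-in scaling the SD of the set's mean rose from 0.023 to 0.495 and the median SD from 0.09 to 0.499, where all detected genes had 0.497. With the undetected gene included the SD of the mean was 0.041. Without a replicate it ran from 0.014 (without replicate 2) to 0.028, and the median SD from 0.064 to 0.099. Quantile normalization moved 0 of 52 levels beyond their SD, and normexp moved 30, by up to 0.74. No paired analysis was possible because all samples belong to 1 group. Signals near background, as for Cdk6, limit what can be read.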
